A study of Rattus norvegicus with 33 samples.

Results

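The left lumbar dorsal horn (LDH) of adult rats whose left hindpaw was inflamed on postnatal day 3 (P3) was read on 6 of the 33 arrays of the series. The 6 arrays were chosen by their titles, which name P3 injection and the left side of the spinal cord, and every probe of their table was used. Each array set carrageenan-treated tissue against control tissue from the same side. Arrays 5 and 6 were near-identical and were averaged, which left 5 samples. Of the 222 probes, 196 carry 1 gene symbol (158 genes), and the other 26 are unnamed here and were counted without a name.

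Carrageenan, a sugar polymer from red algae, provokes swelling and pain where it is injected. The labels state that treated pups received 0.25% carrageenan in saline at 1 µl per g of body weight into the sole of the left hindpaw at P3, and series text places tissue collection at P60, in males. The other group for which values are printed beside these, apart from right cord and brain of the same treatment, is left cord after the same injection at P12. The labels name the second channel as left LDH control and give neither a vehicle nor a strain. Per the series text, some rats were inflamed again as adults with complete Freund's adjuvant, an oil emulsion that causes lasting inflammation. The labels do not say which arrays these are, so rats with and without adult inflammation may stand in the same group. Nor do they say whether an array holds 1 animal or a pool, or whether arrays came from separate animals, so the p-values measure only the spread between these samples.

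The dorsal horn is where sensory fibres from the limb, including those that signal tissue damage, make their synapses in the cord. Glutamate carries the excitatory signal there through AMPA, kainate, NMDA and metabotropic receptors, and GABA holds it in check. Opioid peptides, serotonin and noradrenaline can damp transmission, though not in every setting, while substance P, calcitonin gene-related peptide, brain-derived neurotrophic factor and inflammatory cytokines are known to strengthen it. The array was printed for these systems. It held no probe matched to the lists of neuron, astrocyte, microglia, oligodendrocyte or blood cell markers, or to that of reference genes, so the tissue label could not be checked, and fewer cells of a type cannot be told apart from less RNA per cell.

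Values are log ratios of the 2 channels as deposited, read here as log2. Neither the base nor the direction is stated. Carrageenan is channel 1 in the labels, so a positive value is likely carrageenan over control, but results are given as positive and negative only. The medians of the 6 arrays lay between 0 and 0.055. The SD over probes was 0.418, 0.675, 1.10 and 0.515 on arrays 1 to 4, and 0.477 and 0.495 on arrays 5 and 6. Array 3 had the widest spread. It held 18 of the 28 values beyond 2 in size among the 5 samples, 12 values of exactly 0, and the most extreme of the 5 values at 87 of the 222 probes. Of the 25 probes with any value beyond 2, 22 had it in 1 sample only. Between arrays 5 and 6, r was 0.969 and the gap was at most 0.1 for 92.3% of the probes. The other 14 pairs of left arrays had r from -0.041 to 0.245, with a median of 0.069. These correlations are across probes, which are not independent replicates. Apart from the near-identical pair, the arrays thus had little of their probe-to-probe pattern in common. The 72 pairs of a left array with a right cord or brain array had a median r of 0.162, up to 0.417.

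**Figure D1:**
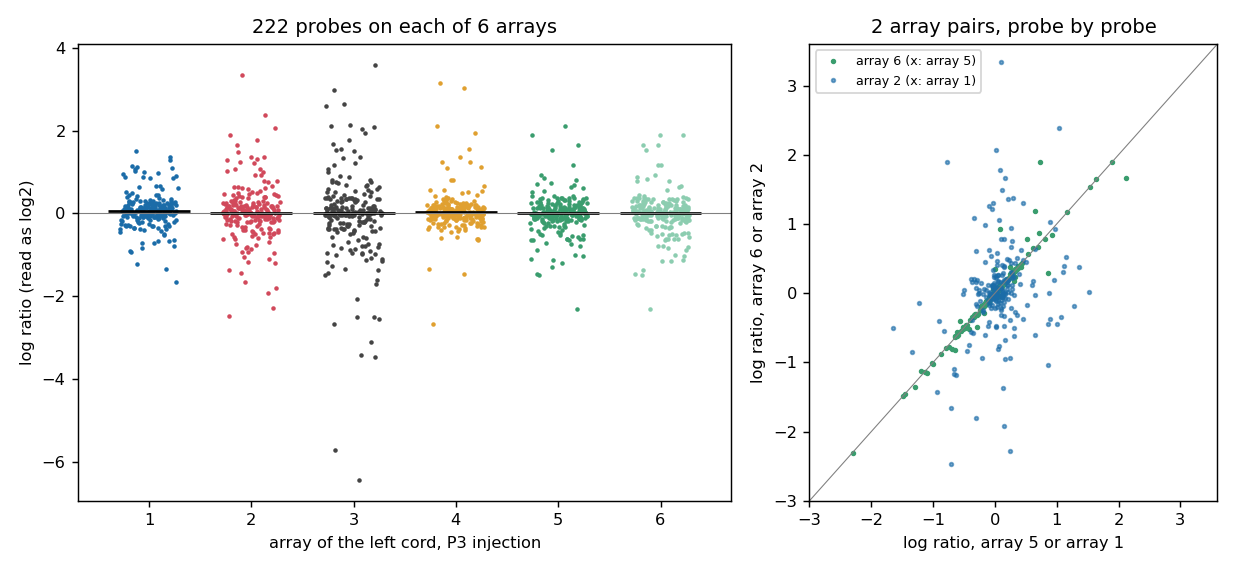
Log ratios (read as log2) of 222 probes on each of the 6 left cord arrays, with a black line at each array's median, and array 6 against array 5 and array 2 against array 1, probe by probe, with the line of equality. Array 3 spreads widest, from -6.43 to 3.59, and arrays 5 and 6 lie along the line of equality while arrays 1 and 2 do not.

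The first question was whether the log ratio of any gene stood away from 0 on the injected side. No probe passed limma's moderated test against 0 at a Benjamini-Hochberg adjusted p under 0.05 (0 of 222, percent called 0), and the lowest adjusted p was 0.441. At an unadjusted p under 0.05 there were 17 probes (7.66%), 9 with a positive mean (4.05%) and 8 with a negative mean (3.6%). With a plain one-sample test or with robust regression 0 probes passed too, and 14 and 32 were at an unadjusted p under 0.05. Means were positive at 128 probes (57.7%) and negative at 94 (42.3%), with a median of 0.049. At 22 probes (9.91%) all 5 samples had the same sign, positive at 13 (5.86%) and negative at 9 (4.05%). With 5 samples an exact two-sided sign-flip permutation test cannot give a p under 0.0625, which is the value for each named probe of one sign below.

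The measurements set limits on the size of the deposited ratio as well. They hold no signal intensity, so a ratio near 0 at an expressed gene cannot be told apart from a probe near background. The limits are thus not limits on the change in RNA. At 131 of the 222 probes (59.0%) the mean lay within 0.2 of 0, and only 2 probes had a mean beyond 1 in size. The 95% interval of the mean lay wholly between -1 and 1 at 168 probes (75.7%), and between -0.5 and 0.5 at 105. In base 2, a value of 1 is a ratio of 2. The half-width of the interval had a median of 0.362, with quartiles of 0.223 and 0.674. At the other 54 probes the interval reached past 1 in at least 1 direction, and in both at 6.

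GABA receptors held 5 of the 20 named probes with the smallest p, and 22 (11.2%) of all 196 named probes. Of the 5, 3 belong to Gabbr1. Gabrp, the pi subunit of the GABA-A receptor, had log ratios of -0.67, -1.10, -0.37, -1.47 and -1.02 in samples 1 to 5. All 5 were negative and 3 lay below -1. Their mean was -0.92 ± 0.42 (SD, n = 5), which in base 2 is a ratio of 1.90 in size, with the negative sign left aside. The adjusted p was 0.441 in limma. Gabrq, the theta subunit, had 0.01, -0.47, -0.16, -0.27 and -0.11, with a mean of -0.20 ± 0.18, negative in 4 of 5 samples, and -0.13 without sample 2. Of the 14 probes for GABA-A subunits, 8 means were positive and 6 negative with a median of 0.048, 1 had an unadjusted p under 0.05 and 0 passed. The probe with the highest mean was that of Gabra6, at 0.55 ± 1.72, and this mean rested on a single value of 3.59 in sample 3, with the other 4 samples between -0.57 and 0.20.

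Gabbr1, a subunit of the GABA-B receptor through which GABA acts on second messengers and ion channels, had 8 probes, numbered here in the order of the table. The 8 probes did not share a direction. Probe 5 had -0.67, -1.17, -2.06, -0.22 and -0.55 in samples 1 to 5, probe 6 had -0.63, -1.19, -1.61, -0.12 and -0.61, and probe 3 had -0.83, -0.55, -1.37, -0.10 and -0.20. In each of these 3 probes all samples were negative, sample 3 was the lowest and sample 4 the nearest to 0. The means were -0.93 ± 0.72, -0.83 ± 0.58 and -0.61 ± 0.51 (SD, n = 5), each with an adjusted p of 0.600 in limma. Probe 7 had 0.51, 0.45, 1.95, 0.09 and -0.11, so that sample 3 was here the highest, and its mean was 0.58 ± 0.81. The means of probes 1, 2, 4 and 8 lay between 0.094 and 0.21. Probes 2 to 7 carry the same sequence entry, so 3 probes of that entry had negative means and 3 positive ones. Averaged over all 8 probes, Gabbr1 had a mean of -0.14 and an adjusted p of 0.606. The sources used here do not say which transcript of the gene each probe reads. The 3 probes are not independent of each other, since they were read on the same arrays from the same RNA.

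In the other tissues of the same table the 3 negative Gabbr1 probes also had negative means. In right cord, however, probes 5 and 6 were each above 0 in 3 of 5 samples. Their negative means there followed right cord sample 1, at -1.14 and -1.40. Probe 3 had 1 right cord sample above 0, only at 0.015. In brain probes 3 and 6 had at least 1 sample above 0, while probe 5 was negative in all 6 samples. Probe 5 had a mean of -0.25 ± 0.52 in right cord (n = 5) and -0.48 ± 0.49 in brain (n = 6), probe 6 had -0.07 ± 0.85 and -0.39 ± 0.58, and probe 3 had -0.74 ± 0.78 and -0.09 ± 1.13. The difference between left cord and the mean of both other tissues was -0.57 ± 0.30 (SE) for probe 5, -0.60 ± 0.35 for probe 6 and -0.20 ± 0.45 for probe 3, each with an adjusted p of 0.964 in limma, so a difference from the other tissues was not shown. In left cord after injection at P12, on another platform and so without a test, the shared entry had 5 probes, 3 with negative and 2 with positive means, from -1.06 to 0.23.

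**Figure D2:**
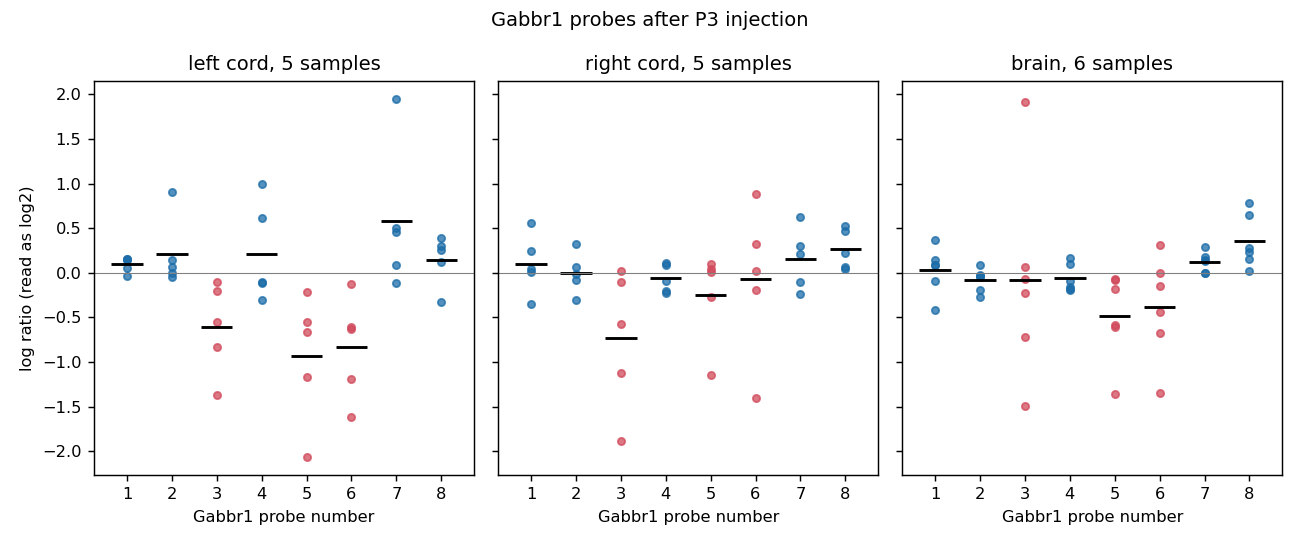
Log ratios (read as log2) of the 8 Gabbr1 probes by probe number in left cord, right cord and brain after P3 injection, with 1 point per sample and a black line at the mean. Probes 3, 5 and 6 (red) are below 0 in all 5 left cord samples. In right cord probes 5 and 6 are each above 0 in 3 of 5 samples, and probe 3 in 1. For probe 3 that sample is only at 0.015, and the right cord mean of -0.74 lies below the left cord mean of -0.61.

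The 4 probes for GABA synthesis and transport had positive means, from 0.15 for Gad1, which makes GABA from glutamate, to 0.53 ± 0.91 for Slc6a11, a GABA transporter. None was positive in 5 of 5 samples, and the Slc6a11 mean rested on 2.11 in sample 3. Positive means stood at 57.7% of all probes. In right cord and in brain 3 of the same 4 means were positive.

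Among glutamate receptors, the metabotropic group held the lowest mean of all probes. Grm5, which couples to calcium release, had -1.65, -0.50, -5.71, -0.19 and -2.31 in samples 1 to 5. All were negative, and sample 3 lay far below the rest. The mean of -2.07 ± 2.21 had a 95% interval from -4.19 to 0.05 and an adjusted p of 0.600 in limma, and it was -1.16 without sample 3. Grm5 was also negative in right cord, at -1.68 ± 0.83, and in brain, at -2.05 ± 0.64, and the left cord lay -0.21 ± 0.69 (SE) from their mean with an adjusted p of 0.964. Grm8, a receptor that lowers transmitter release, had 0.26, 0.94, 0.07, 0.57 and 1.89, all positive, with a mean of 0.75 ± 0.72 that was 0.46 without sample 5. Grm6 had a mean of -0.93, with -3.42 in sample 3. The other 5 probes of this group had means between -0.05 and 0.26.

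Grik2, a kainate receptor subunit, had 1.15, 0.52, 0.74, -0.02 and 0.30, with a mean of 0.54 ± 0.44 that was positive in 4 of 5 samples. The 2 probes of Grik1, another kainate subunit, had opposite means of -0.59 ± 1.57 and 0.62 ± 0.98. Of the 7 kainate probes 4 means were positive, with a median of 0.15. Gria1, a subunit of AMPA receptors, had -0.93, -1.44, -0.17, -0.23 and 0.02. Its mean of -0.55 ± 0.61 was -0.33 without sample 2. The 10 NMDA receptor probes were positive in mean at 4 and negative at 6, and their median was -0.028. Grin1, the obligatory NMDA subunit, had 4 probes: probe 1 was negative in 5 of 5 samples but small, between -0.15 and -0.075, and probe 4 had 0.39 ± 0.57 through a value of 1.37 in sample 1. Grin2b, an NMDA subunit studied for its part in chronic pain, had -1.34, -0.85, -0.02, 0.11 and 0.24, so its mean of -0.37 ± 0.69 joined samples of both signs. None of the 30 glutamate receptor probes passed, and 2 had an unadjusted p under 0.05. Both glutamate transporters, Slc1a1 and Slc1a6, lay near 0, at -0.01 and -0.09.

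**Figure D3:**
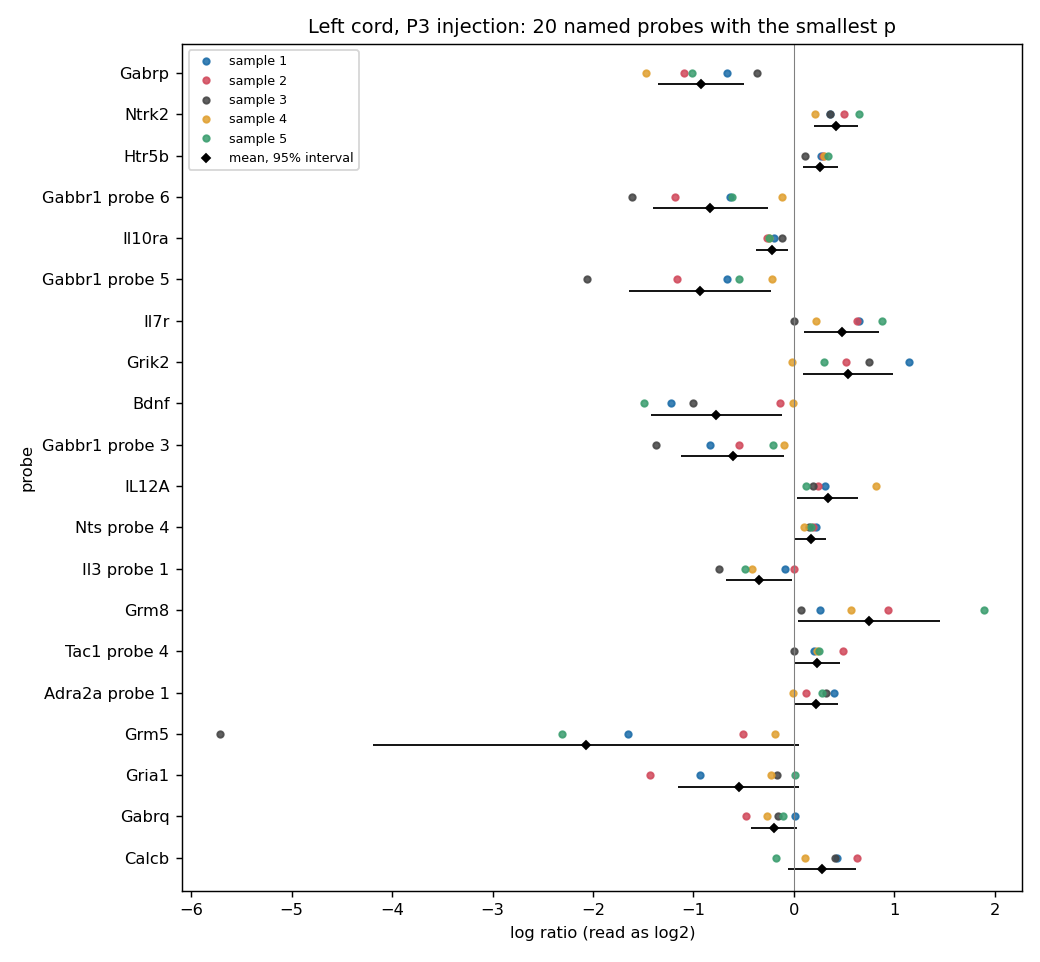
Log ratios (read as log2) in samples 1 to 5 (coloured points) of the 20 named probes with the smallest p in limma, with the mean and its 95% interval from limma (black) under each. The intervals of the first 16 probes stop short of 0 before adjustment, the interval of Grm5 is the widest, and the adjusted p is 0.441 or above for all 20.

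Neurotrophins and their receptors support the growth and sensitivity of sensory neurons. Ntrk2, which encodes the TrkB receptor that binds BDNF, had 0.36, 0.50, 0.36, 0.21 and 0.65, all positive and within a narrow range. Its mean was 0.42 ± 0.17, or a ratio of 1.33 in base 2, with an adjusted p of 0.441 in limma. Bdnf, the ligand, had -1.22, -0.14, -1.01, -0.01 and -1.49. Samples 1, 3 and 5 were thus below -1 while samples 2 and 4 lay near 0, and the mean was -0.77 ± 0.66 with an adjusted p of 0.600. Ntrk2 had 0.58 ± 0.47 in right cord and 0.50 ± 0.73 in brain, and Bdnf had -0.47 ± 0.58 and -0.82 ± 0.65. In neither gene was a difference of left cord from the other tissues shown in limma (differences of -0.13 ± 0.27 and -0.13 ± 0.33, SE, each with an adjusted p of 0.964). Ntrk3 and Ngfr, the other 2 receptors, had means of 0.27 and 0.006, and the neurotrophins Ntf3 and Ntf4 had 0.046 and -0.19.

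Htr5b, a serotonin receptor, had 0.27, 0.28, 0.11, 0.30 and 0.34, all positive, with a mean of 0.26 ± 0.091 and an adjusted p of 0.600 in limma. Its means in right cord and brain were positive too, at 0.11 ± 0.11 and 0.14 ± 0.11. A difference of left cord from them was not shown (adjusted p of 0.964 in limma). The 16 probes for serotonin receptors and the serotonin transporter had 9 positive and 7 negative means between -0.36 (Htr2b) and 0.37 (Htr6), which were -0.021 and 0.13 without sample 3, and 1 had an unadjusted p under 0.05. Adra2a, the adrenergic receptor through which noradrenaline damps pain signals in the cord, had 3 probes. The first had 0.40, 0.12, 0.32, -0.01 and 0.28, with a mean of 0.22 ± 0.16, and the other 2 had means of -0.08 and 0.04. The 10 adrenergic probes kept within -0.09 and 0.22 in their means. In the histamine group Hrh4 probe 1 had the lowest mean, -0.80 ± 1.74, with 2.11 in sample 4 and negative values in the other 4 samples, while Hrh1 had the highest, 0.25 ± 0.31. Hrh4 probe 1 was also negative in every right cord sample, at -1.35 ± 0.83 (n = 5), and in every brain sample, at -1.57 ± 0.41 (n = 6).

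Opioid genes, whose products can inhibit pain transmission in the cord, were without a common direction. The 3 probes of the enkephalin precursor Penk had means of -0.37 ± 0.48, -0.40 ± 1.18 and 0.01 ± 0.13, and the second rested on -2.50 in sample 3. The dynorphin precursor Pdyn lay between -0.09 and 0.20 in every sample. Oprm1, the receptor of morphine, had 0.31, -0.63, 0.80, 0.04 and -0.61, which averaged to -0.02 ± 0.61, with a 95% interval from -0.62 to 0.59. Oprk1 and Oprd1, the kappa and delta receptors, had means of -0.15 ± 0.88 and -0.14 ± 0.34. The highest mean of all 222 probes belonged to probe 2 of Oprl1, the nociceptin receptor, at 1.01 ± 1.47. It came from 3.35 in sample 2 and 1.57 in sample 3, with the other 3 samples between -0.06 and 0.10, and its other probe had 0.26 ± 0.77. Of the 10 opioid probes, 4 means were positive and 0 had an unadjusted p under 0.05.

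Peptides that excite the dorsal horn were measured by several probes. Tac1, the precursor of substance P, had 4 probes with means of 0.36 ± 0.67, -0.07 ± 0.47, -0.12 ± 0.18 and 0.23 ± 0.17. Probe 4 was positive in 4 of 5 samples with 1 at exactly 0, and probe 1 owed its mean to 1.56 in sample 4. The receptors Tacr2 and Tacr3 had means of 0.10 and 0.12. Calca and Calcb, which encode calcitonin gene-related peptides, had 0.16 ± 0.26 and 0.28 ± 0.32, and Calcrl, part of their receptor, had -6.43 in sample 3 against 0.07 to 1.11 in the other 4. Its mean of -0.95 ± 3.09 had the largest SD of all named probes, and all 4 other samples were positive. Next in SD among named probes came Grm5, Il1a (2.03), Vipr2 probe 1 (1.88) and Hrh4 probe 1 (1.74).

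Among other peptides, Nts, the precursor of neurotensin, had 4 probes on the same entry. Probe 4 had 0.22, 0.19, 0.15, 0.10 and 0.17, all positive with a mean of 0.17 ± 0.044, and the other 3 probes had means between -0.05 and 0.07. Nts probe 4 also had positive means in right cord, at 0.13 ± 0.18, and in brain, at 0.17 ± 0.12. The left cord lay 0.016 ± 0.087 (SE) from their mean, with an adjusted p of 0.977 in limma. Neuropeptide Y genes had 4 positive means of 5, from -0.18 for the receptor Npy1r to 0.36 for Npy2r, and Npy itself had 0.17 ± 0.86 through 1.64 in sample 5. Somatostatin and its receptors had 7 positive means of 9 within -0.12 and 0.17, beside 57.7% positive means among all probes. Cck, the cholecystokinin precursor, had -0.15 and its receptor Cckbr 0.087. Vipr1, a receptor of vasoactive intestinal peptide, had the highest mean of the remaining peptide genes, 0.57 ± 1.44, which was -0.036 without sample 3, and Ntsr2, a neurotensin receptor, the lowest, -0.41 ± 0.73. Of the 27 probes for these peptides and their receptors, 1 (Nts probe 4) had an unadjusted p under 0.05 and 0 passed.

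**Figure D4:**
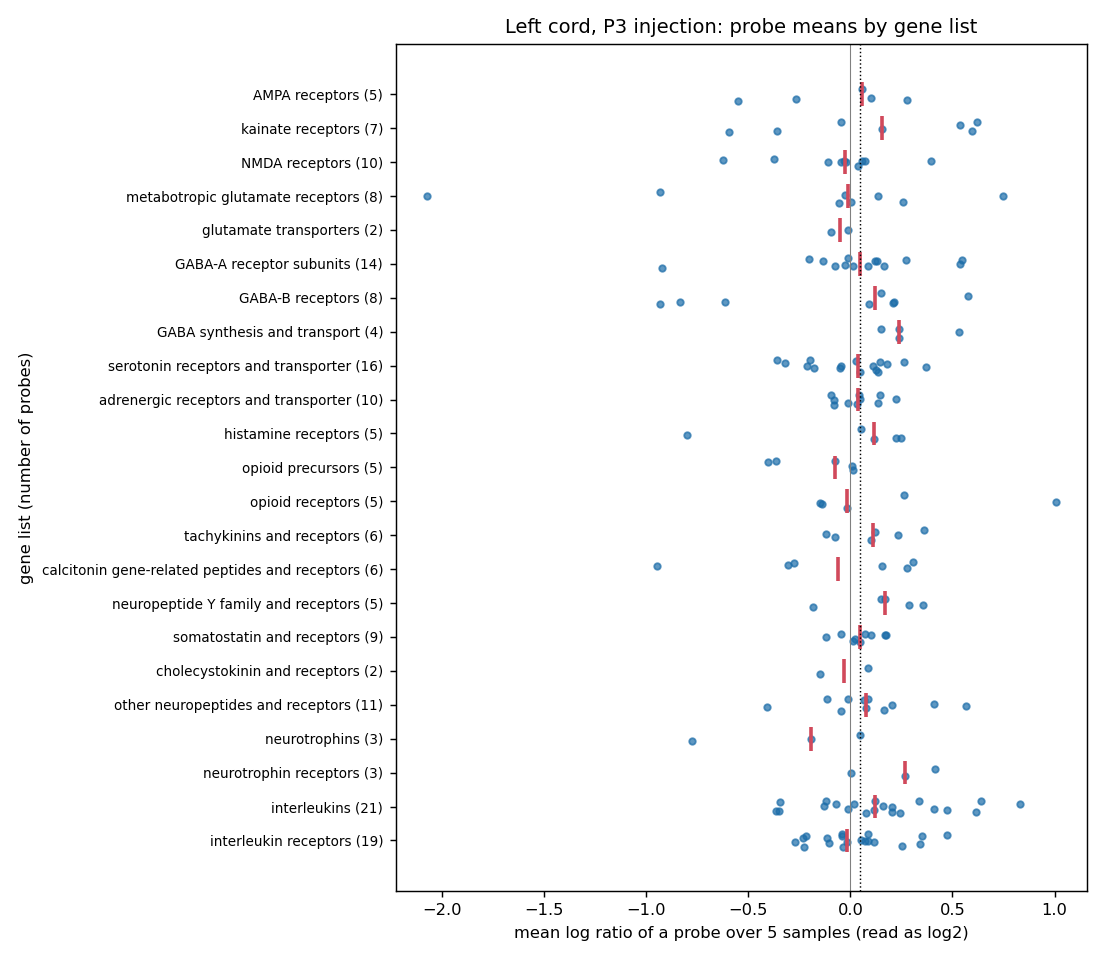
Mean log ratio (read as log2) over 5 left cord samples of each probe, by gene list, with the number of probes in parentheses, a red line at the list's median and a dotted line at the median of all 222 probes, 0.049. Most lists have means on both sides of 0. The points far from 0 are single probes such as Grm5, Calcrl, Gabrp and Oprl1.

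Cytokine genes covered 21 probes for interleukins and 19 for their receptors. Il10ra, a receptor chain for the anti-inflammatory interleukin 10, had -0.20, -0.27, -0.12, -0.25 and -0.24, all negative, with a mean of -0.22 ± 0.059 and an adjusted p of 0.600 in limma. Its means in right cord and brain were negative too, at -0.10 ± 0.16 and -0.12 ± 0.22. A difference of left cord from them was not shown (adjusted p of 0.964 in limma). Il7r, on a mouse sequence entry, had 0.65, 0.63, 0, 0.22 and 0.88, with a mean of 0.48 ± 0.36. The human sequence entry IL12A had 0.31, 0.24, 0.19, 0.82 and 0.12, all positive, with a mean of 0.34 ± 0.28 that was 0.215 without sample 4. The rat entry Il12a had 0.17, 1.66, 0, 1.23 and 0.01 and so showed its large values in samples 2 and 4. Il3 probe 1 had -0.35 ± 0.30, negative in 4 of 5 samples with 1 at exactly 0, while its probe 2 had -0.07 ± 0.91. The pro-inflammatory cytokines Il1b and Il6 lay close to 0, at 0.016 ± 0.16 and -0.010 ± 0.12, with 95% intervals from -0.20 to 0.23 and from -0.20 to 0.18. Interleukin means were positive at 14 probes and negative at 7, and their median was 0.12. Positive means stood at 57.7% of all probes. Of the same 21 interleukin probes, 12 had positive means in right cord and 15 in brain. The interleukin means in left cord ran from -0.37 (Il9) to 0.83 (IL12B, a human entry, with 3.03 in sample 4). Receptor means were positive at 9 probes and negative at 10, with -0.018 as their median. They ran from -0.27 (Cxcr1) to 0.48 (Il7r). In each of these 2 lists 2 probes had an unadjusted p under 0.05 in limma, beside 7.66% of all probes, and 0 passed.

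Genes outside the lists were 12 probes, with 7 positive and 5 negative means. The 5 adenosine receptor probes, grouped after the gene names were seen, had means between -0.20 and 0.10. Egr1, a gene switched on rapidly by neuronal activity, had -0.36 ± 1.29 with -2.50 in sample 3, and the peptide precursor Vgf had 0.35 ± 0.49. Bex3 had 0.51 ± 0.89 through 2.09 in sample 3. The 26 unnamed probes had 13 positive and 13 negative means between -0.41 and 0.76, and 1 had an unadjusted p under 0.05.

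The pain-related panel of 16 measured genes had 31 probes, 14 with positive and 17 with negative means. Ntrk2 was positive in 5 of 5 samples, and Bdnf, Grin1 probe 1 and the 3 Gabbr1 probes were negative in 5 of 5. These 6 of 31 probes stand beside 9.91% of all probes, and 3 of them belong to Gabbr1. The panel was drawn up with earlier results of these data known, and none of its probes passed.

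**Figure D5:**
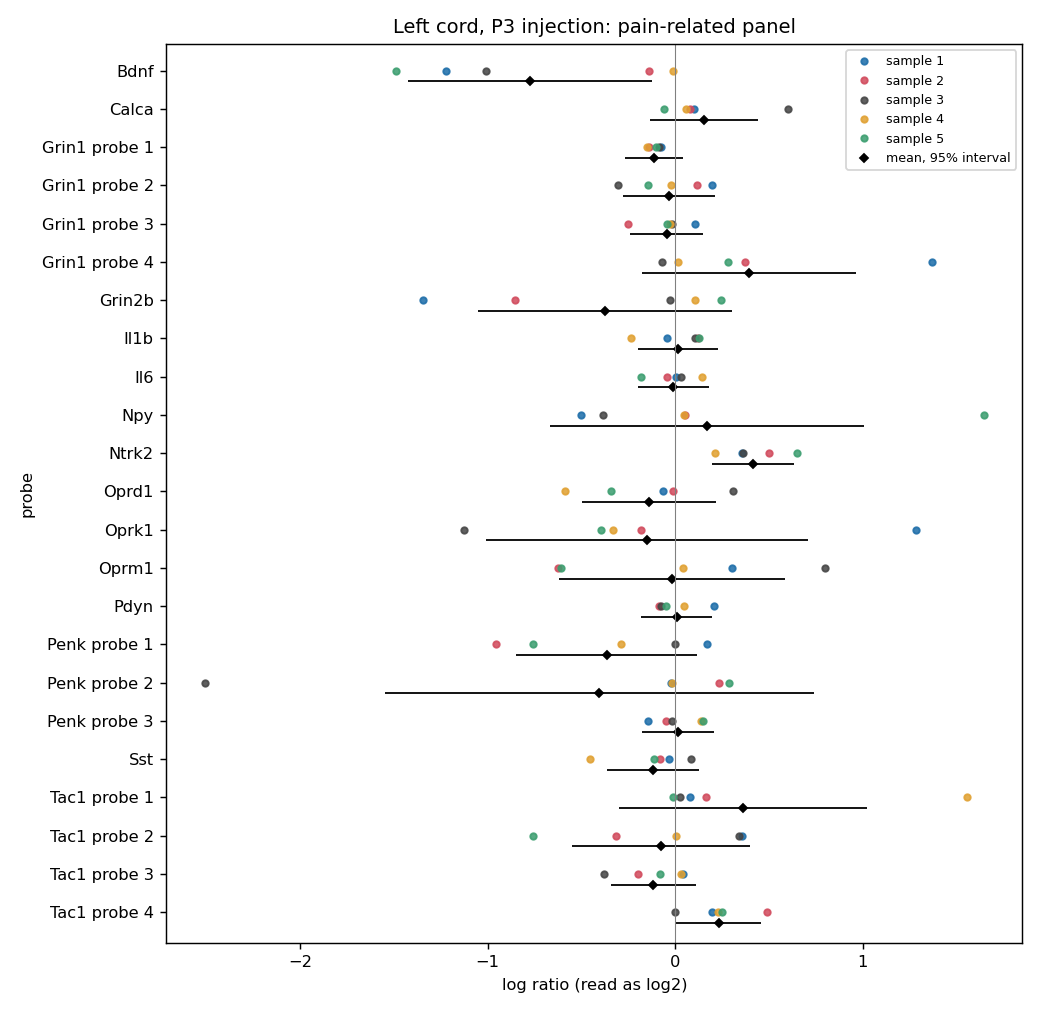
Log ratios (read as log2) in samples 1 to 5 (coloured points) of the 23 panel probes other than those of Gabbr1, with the mean and its 95% interval from limma (black). Ntrk2 lies above 0 and Bdnf below it, Il1b, Il6 and Pdyn lie close to 0, and the means of Tac1 probe 1, Npy, Grin1 probe 4 and Penk probe 2 each follow 1 distant sample.

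Probes of the same gene often disagreed. Of the 23 genes with several probes, 14 had both positive and negative means, and in 8 genes the means were over 0.5 apart. The range between probe means was widest in Gabbr1, at 1.51, followed by Grik1 at 1.21 and Hrh4 at 0.92, and the median range was 0.30.

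Left cord was then set against the mean of right cord and brain of the same table, to find where it stood apart from both. This contrast joins side (left against right cord) and region (cord against brain), so it does not isolate the injected side. No probe passed in limma (0 of 222, percent called 0), the lowest adjusted p was 0.964, and 9 probes (4.05%) had an unadjusted p under 0.05. Grik2 had the smallest p. Its mean was 0.54 on the left, -0.25 ± 0.57 in right cord and -0.22 ± 0.55 in brain, and the difference was 0.77 ± 0.27 (SE). Adra2a probe 1 had 0.22 on the left against 0.05 in right cord and a mean at 0 in brain, and the difference was 0.20 ± 0.082. Grik4, a kainate subunit, had -0.36 on the left, 0.23 in right cord and 0.08 in brain, and the difference was -0.52 ± 0.22. The somatostatin receptor entry SSTR had -0.05, 0.09 and 0.24, a difference of -0.21 ± 0.096, and Il1b had 0.016, -0.12 and -0.33, a difference of 0.24 ± 0.11. Each of these 5 had an adjusted p of 0.964. Gabrp, whose left cord mean of -0.92 had the smallest p against 0, had -0.35 ± 0.37 in right cord and -0.44 ± 1.11 in brain, and the difference was -0.53 ± 0.39 with an adjusted p of 0.964. The negative sign of Gabrp was thus also that of both other means. In right cord 4 of 5 samples were negative. In brain 4 of 6 were, but that mean followed -2.595 in brain sample 5, with the other values between -0.38 and 0.60. In left cord after injection at P12, set beside the P3 values without a test, Gabrp had -0.075 ± 0.76, Ntrk2 -0.12 ± 0.36 and Bdnf 0.070 ± 0.14 (SD, n = 5). Grik2 had 0.56 ± 0.85 there and was above 0 in only 2 of 5 samples. Grm8 had 0.47 ± 0.27 and was above 0 in 5 of 5. Htr5b and Il10ra, each of one sign in the P3 left samples, had -0.036 ± 0.36 and -0.11 ± 0.42 at P12.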

How the data were processed

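TRIzol was used to isolate RNA, of which 5 µg went into each labelling reaction, and the cDNA was put on custom oligonucleotide arrays, per the labels' protocols. The authors deposited 1 signed log ratio per probe and array, read here as log2. The sources used here give no scanner, background correction, normalization, log base or direction, and name no dye swap. With its sign left aside, the value farthest from 0, -6.43, would be a ratio of 2697739 in base 10, beyond the 65535 steps of a 16-bit scanner. A natural base would give 621. No p-value changes with the base. Arrays carry no read depth, and their number limits the precision.

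Left arrays 5 and 6 (and right arrays 1 and 2, r = 0.806) were averaged as 1 sample each. Probes were tested singly against 0 with limma 3.58.1 (R 4.3.3; lmFit, eBayes, two-sided, Benjamini-Hochberg over 222 probes, threshold 0.05), with no filter, from the left samples alone. The difference from right cord and brain used 1 fit of the 3 P3 groups. Scripts were tested on simulated data. Figures and counts used Python 3.11.15. Probe names came from the array annotation. Entrez identifiers of 187 probes were found in the RefSeq rat gene table, which changed 0 symbols, and the other 9 kept the array's name.

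Named were the 20 named probes with the smallest p, the pain-related panel, the highest and lowest mean of each list of at least 3 probes, the 5 largest SDs, the 5 smallest p of the difference, and all probes of a gene among the first 20. Genes outside this rule (Grm6, Ntrk3, Ntf4, Slc1a1, Slc1a6, Tacr2, Tacr3, Cck, Cckbr, Il12a, Egr1, Vgf, Bex3) were chosen after their values were seen. The members, lists and tests were chosen with earlier results of these data known. Of 37 lists, 24 matched at least 1 probe. The labels do not say that equal replicate numbers mark a pair, so samples were treated as unpaired.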

Additional observations from a re-analysis of the deposited data

Results flagged for a closer look

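Among 80 named probes and the array medians and SDs (82 sets of 5 samples), 16 had a highest or lowest sample whose gap to its neighbour exceeded 0.71 of the whole range. Chance flags about 1 in 20 sets, but that rate is no yardstick here, because many of the 80 probes were named for a mean or SD that 1 distant sample can set. The causes were not tested.

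Sample 3 held 7 of these values. It was the low one for Calcrl (-6.43), Il9 (-2.67) and Penk probe 2 (-2.50), and the high one for Gabra6 (3.59), Slc6a11 (2.11), Gabbr1 probe 2 (0.91) and Calca (0.60). Its values also spread most over probes. Sample 4 held 5, with Vipr2 probe 1 at 3.14, Tac1 probe 1 at 1.56, IL12A at 0.82, Nts probe 2 at -0.37 and Grin3a probe 2 at -2.67. Sample 5, the mean of arrays 5 and 6, held 2, with Npy at 1.64 and Il3 probe 2 at 1.54, and sample 1 held 2, with Ntf3 at -0.34 and Ntsr2 at 0.86. For Il3 probe 2 the other 4 samples were all negative.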

How the results depend on the processing

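Under all 16 alternatives of the test against 0, and all 23 of the difference from the other tissues, 0 items passed in limma or in the other tests named. The lowest adjusted p was 0.0737 (Htr5b, robust regression) and 0.508 (difference, without left replicate 4). Items at an unadjusted p under 0.05 ranged from 9 to 32 against 0, where 17 were reported, with 9 to 19 when 1 replicate was left out, and with 10 when probes of a symbol were averaged. None of the 20 probes with the smallest p changed sign. They were chosen for a small p in these same samples, so this was largely set by the choice and is no support for them. A probe of one sign in all 5 samples cannot change sign when 1 sample is left out. Over all 80 named probes and 16 settings the mean changed sign in 87 of 1280 cases, 15 of them without replicate 3 and 16 when probes were averaged, and the median size of these means was 0.072. Adjusted p ranged from 0.0776 to 0.709 for Gabrp, Ntrk2 and Il10ra. Averaging moved 8 probes by more than their SD. Gabbr1 probes 1 and 8 (to -0.14), Grin1 probe 1 (to 0.051), Penk probe 3 (to -0.25) and Tac1 probe 3 (to 0.10) changed sign, while Gabbr1 probes 5 and 6 (to -0.14) and Nts probe 4 (to 0.045) moved toward 0. For the difference, a fit with replicate number as a block gave a count of 0, with 5 at an unadjusted p under 0.05. Left samples and same-numbered right or brain samples deviated together weakly (9 pairs, r from -0.073 to 0.159, median 0.039). For other-numbered samples r ran from -0.221 to 0.227 (46 pairs, median 5.0e-05). Such weak correlations cannot decide whether the numbers mark pairs, also because averaged arrays share 1 number. Samples were treated as unpaired because the labels name no pairing. Background correction and slide were not varied, since scanner files were not used here.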
